A study of Rattus norvegicus with 8 samples.

Results

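Transcripts of 8 purinergic receptor genes were measured in single nuclei from the nodose ganglion, the sensory ganglion of the vagus nerve, of the rat. The members were chosen by name as the rows of the deposited gene list for P2rx2, P2rx3, P2rx4, P2rx6, P2ry1, P2ry2, P2ry12 and P2ry14, which are 8 of 30560 genes. The ganglia came from naive Long Evans rats aged 8 weeks, 18 of each sex, and all groups share this strain and age. Each of the 12 pools combined the left or the right ganglia of 6 rats, with 3 pools for each of the 4 combinations of labelled sex and side. Pools are written by label, so that ML1 is the male left pool numbered 1 and FR3 the female right pool numbered 3. With 6 rats per pool and 18 rats per sex, left and right pools would draw on the same animals, so the 2 sides are not independent sets of rats. After barcoding, nuclei of every pool were spread over 8 sublibraries, which serve here only as technical repeats.

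Extracellular ATP and related nucleotides signal through P2X receptors, which are cation channels opened by ATP, and through P2Y receptors, which act by way of G proteins. P2X subunits assemble as trimers, and P2rx2 and P2rx3 together form the ATP-gated channel known from vagal sensory neurons, where ATP released by peripheral tissues excites sensory endings. P2ry1 and P2ry12 are receptors for ADP, P2ry2 for ATP and UTP, and P2ry14 for UDP-sugars, and several of these are known from glia and immune cells.

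The matrix held unique molecular identifiers (UMIs, counts of transcript molecules). After filtering, 36740 nuclei of 36741 remained, with a median of 2680 UMIs, and pools held 1738 to 4849 nuclei. Nuclei were clustered without any purinergic gene, and classes were named by marker genes, so every name below means a likeness. The classes used were 26454 neurons in 26 subclusters, 3383 satellite glia (the cells that wrap neuron bodies) and 2277 myelinating Schwann cells, and no macrophage cluster was found. Among neurons, 14508 nuclei were nodose-like (markers known from placode-derived neurons), 2482 jugular-like (markers such as Prdm12, known from neurons of neural crest origin in the adjoining jugular ganglion) and 9464 neither. Y-linked transcripts went against the sex label in 2 pools, ML1 and FL1: ML1 had 2.88 CPM (UMIs scaled to a class or pool total of 1000000) and FL1 88.6. Tests of the receptors by sex are therefore given with and without both. Of the well barcodes, 1865 occurred in more than 1 sublibrary and 0 in more than 1 pool.

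Promoter sequences from RefSeq (build GRCr8, 250 bases before to 50 after an annotated start) were available for 6 of the 8 members. They are shown for P2rx3, the most abundant member in neurons, for P2ry1, whose level ranged widely over neuron subclusters, and for P2ry2, which had the widest difference between Schwann cells and neurons. The motifs searched on both strands were GGGCGG (a GC box), which 33.1% of all 33469 promoters of the same length hold, TATAAA (14.2%) and CCAAT (37.5%), and capitals mark GGGCGG or its reverse complement CCGCCC. None of the 4 sequences holds TATAAA. RefSeq gives 2 starts for P2rx3, at chr3:90531266-90531565 and chr3:90529260-90529559, both on the minus strand. P2ry1 lies at chr2:147391411-147391710 on the plus strand and P2ry2 at chr1:164779439-164779738 on the minus strand.
P2rx3 first entry: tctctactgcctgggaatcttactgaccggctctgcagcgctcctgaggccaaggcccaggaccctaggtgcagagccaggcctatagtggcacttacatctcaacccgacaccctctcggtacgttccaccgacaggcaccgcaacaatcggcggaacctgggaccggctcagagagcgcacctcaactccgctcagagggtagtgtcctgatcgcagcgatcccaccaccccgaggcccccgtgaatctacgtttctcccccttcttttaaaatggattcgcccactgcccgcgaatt
P2rx3 second entry: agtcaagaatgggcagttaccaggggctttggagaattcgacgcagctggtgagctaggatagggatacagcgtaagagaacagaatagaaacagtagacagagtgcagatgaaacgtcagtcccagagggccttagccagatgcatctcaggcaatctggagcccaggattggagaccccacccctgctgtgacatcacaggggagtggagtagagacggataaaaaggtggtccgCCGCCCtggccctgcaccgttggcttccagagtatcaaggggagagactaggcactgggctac
P2ry1: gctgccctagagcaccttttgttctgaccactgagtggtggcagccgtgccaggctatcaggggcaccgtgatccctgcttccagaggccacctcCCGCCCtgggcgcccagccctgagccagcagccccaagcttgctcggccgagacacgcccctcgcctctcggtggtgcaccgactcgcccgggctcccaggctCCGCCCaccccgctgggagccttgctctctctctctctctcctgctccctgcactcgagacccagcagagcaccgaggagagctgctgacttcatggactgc
P2ry2: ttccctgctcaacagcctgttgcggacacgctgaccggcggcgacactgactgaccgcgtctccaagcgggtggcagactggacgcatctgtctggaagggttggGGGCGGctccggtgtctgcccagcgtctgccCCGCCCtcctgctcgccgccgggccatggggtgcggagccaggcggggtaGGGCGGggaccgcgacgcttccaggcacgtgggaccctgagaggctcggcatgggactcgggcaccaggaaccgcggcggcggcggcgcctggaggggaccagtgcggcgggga
The P2ry2 promoter held 3 GC boxes and 33 CpG dinucleotides, and 92.5% of all promoters had fewer CpGs. P2ry1 held 2 GC boxes and 16 CpGs. The first P2rx3 entry held none of the 3 motifs and 20 CpGs, whereas the second held 1 GC box, 1 CCAAT and 8 CpGs. These matches describe the letters in the window and were not tied to expression.

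P2rx3 was the most abundant member in neurons and P2rx2 the next. Over the 12 pools P2rx3 ranged from 215 to 311 CPM, with a mean of 270 ± 25.1 (SD, n = 12). P2rx2 ranged from 60.5 to 135 CPM around 95.7 ± 19.5 (SD, n = 12). The remaining members were lower: P2rx4, an ATP-gated channel widely found outside neurons too, had 17.1 ± 1.55 CPM, and P2rx6, a subunit known to assemble mainly with other P2X subunits, 13.2 ± 1.53 (SD, n = 12 for both). P2ry1 had 7.35 ± 1.87 CPM, and P2ry12, P2ry2 and P2ry14 had means of 4.03, 3.51 and 3.51. No 2 pools overlapped between the ranges of P2rx3 and P2rx2, or of P2rx2 and P2rx4, whereas the 3 lowest members overlapped one another. CPM does not correct for gene length. Per kb of gene span (GRCr8), the neuronal level of P2rx2, which spans 3.52 kb, was 27.6 CPM per kb, and that of P2rx3, which spans 43.8 kb, 6.15 CPM per kb, so the order of these 2 turns on that scale. P2ry1 had 1.19 CPM per kb, P2rx6 1.11, P2rx4 0.959, P2ry2 0.218, P2ry12 0.0970 and P2ry14 0.0859.

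Technical spread was small for the abundant members. Across the 8 sublibraries the coefficient of variation of P2rx2 in neurons was 2.09%, against 20.3% across the 12 pools, and for P2rx3 it was 2.70% against 9.29%. For P2ry2, with 355 UMIs in all neurons, it was 18.6% across sublibraries and 31.7% across pools. All members but P2ry1 overlap another gene in RefSeq GRCr8, and whether the authors counted by strand is not given in the sources used here. P2ry12 and P2ry14 both lie within Med12l (181 CPM in neurons), P2ry2 overlaps Fchsd2 (214 CPM) and P2rx3 overlaps Ssrp1 (42.5 CPM). P2rx4 overlaps Camkk2 (45.6 CPM) and P2rx6 overlaps Lrrc74b (10.2 CPM), whereas Lrcol1, which overlaps P2rx2, had 0.399 CPM. The levels of members other than P2rx2 and P2ry1 are uncertain to that extent.

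**Figure D1:**
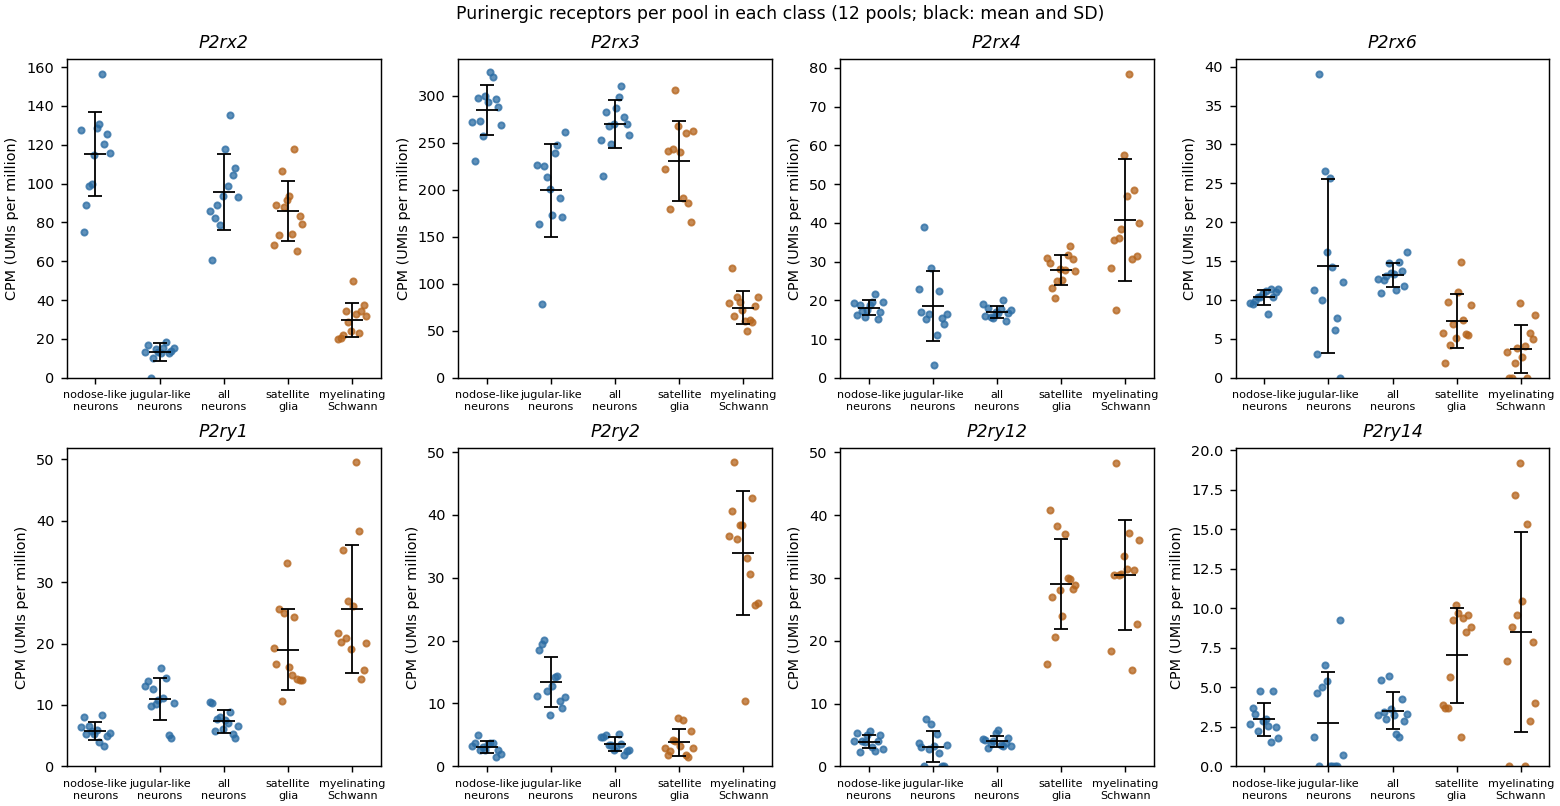
Level of each receptor gene in CPM (y axis, linear, a scale per panel) in every pool for 5 classes (x axis); points are the 12 pools, and black marks give mean and SD. P2rx2 stands at 74.8 to 156 CPM in nodose-like neurons and at 0 to 18.4 in jugular-like neurons, while P2ry12 stands above 15 CPM in every pool of both glial classes and below 6 in all neurons together.

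The 26 neuron subclusters differed widely in P2ry1, P2rx3, P2rx2 and P2rx6 and less in P2rx4, the 5 members with at least 500 UMIs in neurons. P2rx3 reached 808 CPM (95% exact Poisson interval 751 to 867) in subcluster n25, led by Spp1, Kcna1 and Nefh, which are known from large myelinated sensory neurons. It was 724 CPM in n15 (led by Pappa2), 683 in n17 (Agtr1a, an angiotensin receptor), 592 in n24 and 544 in n22, against a median of 250 over the 26. The lowest level, 35.4 CPM (19.8 to 58.3), stood in the jugular-like subcluster n27, led by Trpm8, the cold-sensing channel. Intervals here cover counting error only. Another jugular-like subcluster, n20, was high at 528 CPM, so the jugular-like neurons held both low and high P2rx3.

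P2rx2 followed another order. Its highest level was 177 CPM in n12, led by Cartpt, followed by 169 in n17, 160 in n5 (led by Xylt1 and holding the cholecystokinin receptor gene Cckar among its leading genes) and 155 in n24. In the 5 jugular-like subclusters it lay between 6.97 CPM, from 1 UMI in n29, and 25.9. Subcluster n20 thus paired high P2rx3 (528 CPM) with low P2rx2 (10.5 CPM), whereas n17 had both high. The 2 subunits correlated weakly over the 26 subclusters (Pearson r 0.27, Spearman rho 0.36), a description over points that share libraries.

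P2ry1 ranged widely over subclusters. It reached 144 CPM (115 to 178) in n26 (led by Poteg and Kcnj6, in 7 pools with enough nuclei), 115 in n25, 74.6 in n22 and 28.2 in n13, against a median of 5.27 over the 26 and 0.580 in n6. The 5 subclusters with most P2ry1 UMIs held 62.6% of its neuronal UMIs, a share near that of P2ry2 (65.1%) and P2rx2 (58.3%). In n26, 30.3% of nuclei had a P2ry1 UMI and 12.3% after thinning to 1000 UMIs per nucleus, against 0.382% and 0% in n6, where median depth was higher (6062 against 2534.5 UMIs). In n25 and n22 high P2ry1 went with high P2rx3, while in n26 P2rx3 was 139 CPM and P2rx2 13.5.

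P2rx6 was highest in n14 (led by Pcdh15) at 60.5 CPM, n22 at 51.6 and n15 at 39.6, with a median of 10.1. P2rx4 ranged from 9.43 to 30.5 CPM. P2ry2 was highest in the jugular-like subclusters n10, led by the neuropeptide genes Tac1 and Calca (15.8 CPM), and n16 (11.1), and in the nodose-like n4 (7.88), and 7 subclusters held under 3 of its UMIs. P2ry12 was highest in n24 at 27.4 CPM from 30 UMIs, and P2ry14 stayed at or below 9.79 CPM. Of 118 neighbouring pairs in these orders tested over pools for 5 members (exact sign-flip permutation test, two-sided, Benjamini-Hochberg adjusted over all pairs), 2 passed an adjusted p of 0.05. The design limited this test: the smallest p over 12 pools, 0.000488, passes only where at least 2 pairs reach it, and pairs covering 7 or 8 pools could not pass, so it does not show that the other neighbours were alike. The order was taken from the same pool values, so the pairs and their directions were not fixed beforehand. One passing pair was P2rx3 in n12 over n0 (mean difference of log2(CPM + 1) 0.28 ± 0.15, SD, higher in 12 of 12 pools, adjusted p = 0.0288), and the other P2ry1 in n13 over n15 (1.45 ± 1.39, 12 of 12 pools, adjusted p = 0.0288).

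**Figure D2:**
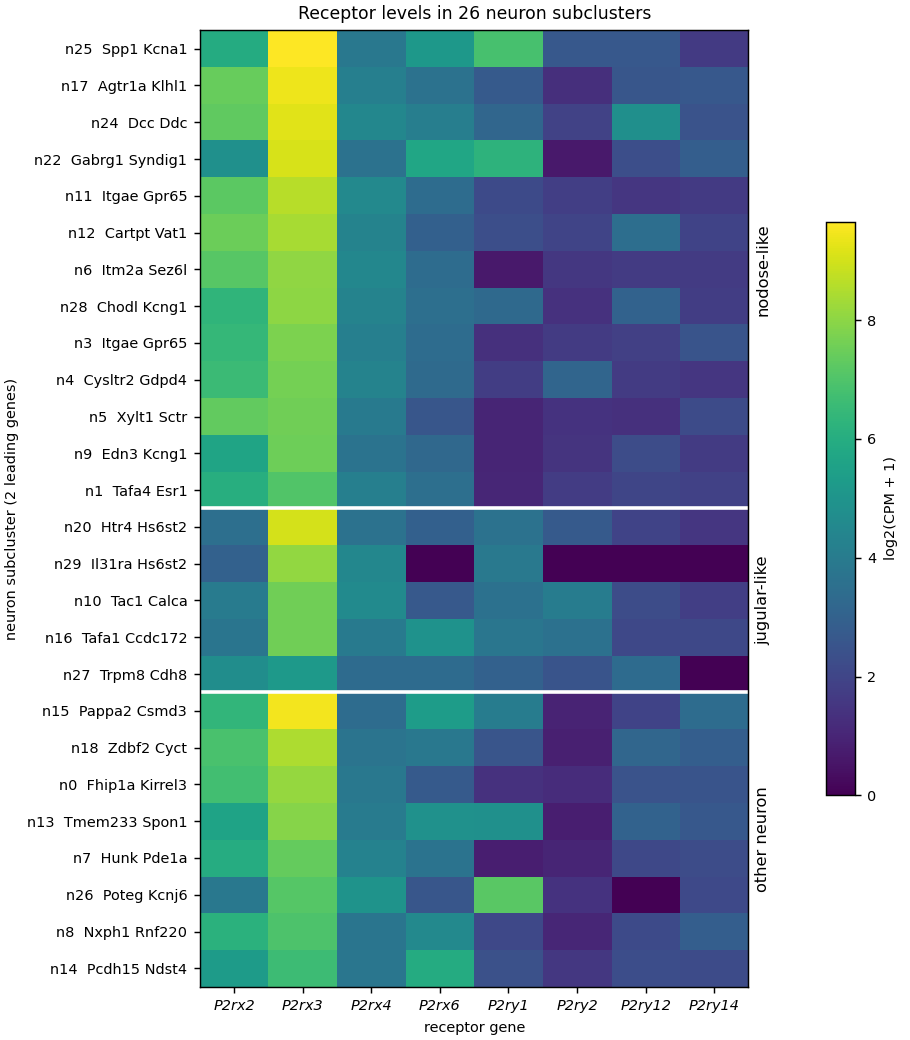
Colour gives log2(CPM + 1) of each receptor gene (columns) in each of 26 neuron subclusters (rows, with 2 leading genes), grouped by type and ordered by P2rx3 within a type. P2rx2 is darker in the jugular-like rows than in the nodose-like ones, and P2ry1 is brightest in n26, n25 and n22, at 144, 115 and 74.6 CPM.

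The genes whose log2(CPM + 1) over the 26 subclusters was most like that of each member, among 8888 genes, are given with their r. For P2rx2 they were Hoxb4, a homeobox gene (r 0.87), Itpripl2 (0.86) and Slc5a7, the choline transporter (0.86). For P2rx3 they were Olfml2b (0.79), Smcr8 and Habp4 (0.77 each). For P2ry1 they included Necab3 (0.90) and Galnt5 (0.85). For P2rx6 they included Tgfb3 (0.87) and Tecr (0.86), and for P2rx4 Sdcbp (0.83) and Efr3b (0.72). These r values rank genes over subclusters and carry no test.

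P2rx2 and P2rx3 were found in the same nuclei slightly more often than their separate rates gave. Of 26454 neurons, 6529 had a P2rx2 UMI and 12347 a P2rx3 UMI, and 4374 had both, so that 67.0% of nuclei with P2rx2 also had P2rx3, against 46.7% of all neurons. Deep nuclei have more of both, so the expected number was computed within strata of subcluster and depth quartile in each pool. Depth still varied within a quartile, so the strata held it only in part. The part of the remaining depth differences in the ratio was not tested. The ratio of observed to expected nuclei with both had a geometric mean of 1.05 and lay above 1 in 12 of 12 pools, from 1.02 in MR2 to 1.08 in ML3 (exact sign-flip permutation test over pools, two-sided, p = 0.000488, the smallest that 12 pools allow). With nuclei thinned to 1000 UMIs the mean ratio was also 1.05, but it exceeded 1 in 8 of 12 pools (p = 0.246, same exact test), so the excess was not detectable at that depth. Without subcluster strata the ratio was 1.12.

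Nodose-like and jugular-like neurons differed most in P2rx2 and P2ry2. P2rx2 in nodose-like neurons had a lowest, median and highest pool of 74.8, 118 and 156 CPM, and in jugular-like neurons of 0, 13.7 and 18.4. The groups did not overlap, and every pool was higher in nodose-like neurons (log2 fold change 2.99 ± 0.10 SE, edgeR adjusted p = 5.5e-25). The 0 stood in ML3, which had 24 jugular-like nuclei. P2ry2 went the other way, with 1.53, 3.17 and 5.06 CPM in nodose-like and 8.10, 12.4 and 20.1 in jugular-like neurons, again without overlap and in 12 of 12 pools (-2.12 ± 0.19, adjusted p = 2.71e-12). Pools held 24 to 596 jugular-like nuclei, so the P2ry2 values of the smaller ones rest on few UMIs.

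P2rx3 was closer between the classes: 230, 291 and 325 CPM in nodose-like and 78.0, 208 and 262 in jugular-like neurons, overlapping as groups but higher in nodose-like neurons in 12 of 12 pools (log2 fold change 0.38 ± 0.07, edgeR adjusted p = 1.39e-05). P2ry1 had a lowest, median and highest pool of 3.26, 5.60 and 8.44 CPM in nodose-like and 4.62, 10.98 and 16.0 in jugular-like neurons, overlapping, and was lower in nodose-like neurons in 11 of 12 pools (-1.01 ± 0.17, adjusted p = 3.3e-06). With coarser clustering (resolution 0.5) the P2ry1 difference was -0.33 and did not pass (adjusted p = 0.183). In all, 2 of 7 members tested were higher and 2 lower in nodose-like neurons, against 45.6% of 11469 genes called in either direction, 22.6% higher and 22.9% lower, so that 4 of 7 is near the background share. P2rx4 (-0.04 ± 0.14, adjusted p = 0.873) and P2ry12 (0.04 ± 0.28, adjusted p = 0.935) did not pass, and P2ry14 was too low to be tested. P2rx6 did not pass either (-0.43 ± 0.20, adjusted p = 0.0734), and its direction turned with the clustering, to 1.18 at resolution 0.5 and 1.01 at resolution 2, both past the threshold (edgeR adjusted p = 7.7e-05 and 0.000567). It also passed, as lower in nodose-like neurons, without ML2, FL3 or FR2 in turn and without the 5% of nuclei with the highest doublet scores, so its call changed in 6 of 18 alternatives. No receptor entered the clustering or the naming of classes.

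**Figure D3:**
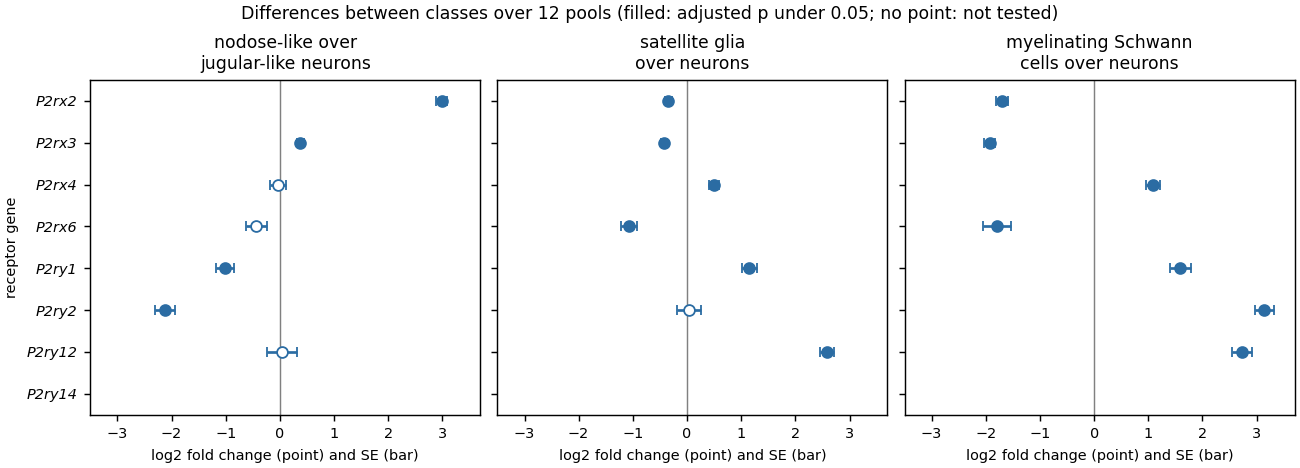
Log2 fold change (x axis; points, with bars for the SE) of each receptor gene (y axis) between classes over 12 pools; filled points passed an adjusted p of 0.05, and a gene without a point was not tested. P2rx2 leads nodose-like over jugular-like neurons at 2.99, and P2ry2 and P2ry12 lead Schwann cells over neurons at 3.14 and 2.73.

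P2ry12, P2ry1 and P2rx4 were higher in both glial classes than in neurons, P2ry2 was higher in Schwann cells, and P2rx2, P2rx3 and P2rx6 were lower in both. P2ry12 in neurons had a lowest, median and highest pool of 2.91, 3.90 and 5.83 CPM, against 16.4, 28.5 and 40.8 in satellite glia and 15.3, 31.0 and 48.3 in myelinating Schwann cells. Neither glial class overlapped neurons, in 12 of 12 pools (log2 fold change 2.59 ± 0.13 SE in satellite glia, edgeR adjusted p = 1.04e-25, and 2.73 ± 0.18 in Schwann cells, adjusted p = 7.69e-20). P2ry12 is known as a marker of microglia and some macrophages. The macrophage list summed to 88.0 CPM in satellite glia, 66.7 in Schwann cells and 13.3 in neurons, with Csf1r at 11.7, 9.39 and 1.36 CPM and Cx3cr1 at 1.20, 1.63 and 0.228, and their part in the P2ry12 level was not tested. Med12l, which overlaps P2ry12, was lower in the glia (140 CPM in satellite glia, 76.7 in Schwann cells) than in neurons (181).

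P2ry2 set the glial classes apart from each other. It had a lowest, median and highest pool of 10.5, 36.4 and 48.3 CPM in Schwann cells, 1.42, 3.08 and 7.65 in satellite glia and 1.82, 3.35 and 5.22 in neurons. Schwann cells overlapped neither of the others (log2 fold change over neurons 3.14 ± 0.18, edgeR adjusted p = 3.38e-23, and over satellite glia 3.10 ± 0.22, adjusted p = 2.91e-18), whereas satellite glia against neurons gave 0.04 ± 0.23 (adjusted p = 0.893), with a direction that turned under several alternatives and a call at resolution 0.5 (-0.59, adjusted p = 0.0147). Of Schwann nuclei 6.85% had a P2ry2 UMI and 3.23% after thinning, against 1.26% and 0.358% of neurons, although the median depth was lower in Schwann nuclei (1557 against 2970 UMIs).

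P2ry1 was higher than in neurons in 12 of 12 pools of both glial classes, with log2 fold changes of 1.15 ± 0.13 in satellite glia and 1.59 ± 0.19 in Schwann cells (edgeR adjusted p = 4.07e-11 and 4.72e-11). Its lowest, median and highest pools were 4.67, 7.29 and 10.5 CPM in neurons, 10.6, 16.4 and 33.2 in satellite glia and 14.2, 21.3 and 49.6 in Schwann cells, with no overlap of either with neurons. P2rx4 was higher by 0.50 ± 0.10 in satellite glia, in 12 of 12 pools without overlap, and by 1.09 ± 0.13 in Schwann cells, in 11 of 12 pools (edgeR adjusted p = 7.69e-06 and 7.38e-11). Camkk2, which overlaps P2rx4, was lower in the glia (31.1 CPM in satellite glia, 24.5 in Schwann cells) than in neurons (45.6). P2ry14 was under the level tested in these contrasts, with 7.66 CPM in satellite glia, 8.37 in Schwann cells and 3.48 in neurons (UMIs summed over pools). In satellite glia 3 of 7 members tested were higher and 3 lower than in neurons, against 75.3% of 10021 genes called, 36.6% higher and 38.7% lower. In Schwann cells 4 were higher and 3 lower, against 76.1% called, 38% in each direction. The shares of members called are near those backgrounds, so the counts say little and the sizes more.

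P2rx2 and P2rx3 were also counted in non-neuronal nuclei. In satellite glia P2rx3 was listed at 166 to 306 CPM and P2rx2 at 65.3 to 118, overlapping the neurons, and both were lower than in neurons in 9 of 12 pools (log2 fold change -0.42 ± 0.06 and -0.35 ± 0.06, edgeR adjusted p = 2.22e-08 and 1.97e-06). At clustering resolution 0.5 neither passed (0.06 and -0.05, adjusted p = 0.397 and 0.455), and P2rx2 did not pass with thinned nuclei (-0.21, adjusted p = 0.0598). The summed level of 12 neuron markers in satellite glia was 84.4% of that in neurons, and P2rx2 and P2rx3 stood at 88.5% and 86.5%. In Schwann cells the markers stood at 35.4%, P2rx2 at 32.5% and P2rx3 at 28.2%. In mural cells, a type of vessel wall cell, the figures were 17.4%, 19.7% and 16.9%, and 8.71% of mural nuclei had a P2rx3 UMI (3.00% after thinning) at a median of 1775.5 UMIs, against 46.7% (20.3%) of neurons. The number of P2rx2 UMIs per P2rx3 UMI was 0.361 in neurons, 0.369 in satellite glia, 0.416 in Schwann cells and 0.419 in mural cells. It was 0.519 in endothelial cells, 0.62 in skeletal muscle and 0.182 in fibroblasts, the last from 2 P2rx2 UMIs. In skeletal muscle the markers stood at 44.1%, P2rx2 at 54.4% and P2rx3 at 31.7%, and in fibroblasts at 32.7%, 14.7% and 29.2%. Of the 350 skeletal muscle nuclei, 263 came from 1 pool, and at least 1 pool had 0, so these values rest mostly on 1 pool. Whether the counts of these 2 subunits in glia are from RNA of the glia or from free neuronal RNA was not tested. The satellite marker list summed to 4799 CPM in satellite glia against 761 in neurons. It summed to 8878 CPM in Schwann cells, 4985 in fibroblasts, 4415 in skeletal muscle, 2580 in endothelial cells and 1234 in mural cells. The list thus set satellite glia apart from neurons but not from every other class. P2rx6 stood at 53.7% in satellite glia (-1.07 ± 0.15, lower in 11 of 12 pools, edgeR adjusted p = 2.81e-09) and 30.1% in Schwann cells. Lrrc74b, which overlaps P2rx6, was also lower there, at 6.15 and 2.45 CPM against 10.2 in neurons. Its part in the P2rx6 counts was not tested.

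**Figure D4:**
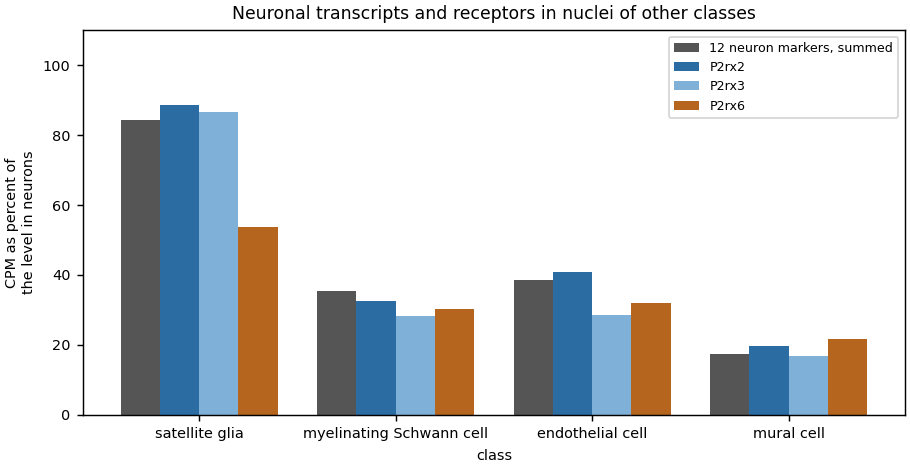
Bars give the CPM of 12 summed neuron markers, P2rx2, P2rx3 and P2rx6 in 4 non-neuronal classes (x axis) as a percentage of the level in neurons (y axis, from 0). In satellite glia the markers stand at 84.4%, P2rx2 at 88.5% and P2rx3 at 86.5%, and in mural cells at 17.4%, 19.7% and 16.9%.

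The small non-neuronal classes were too thin to test and are given by UMIs summed over pools, with 95% exact Poisson intervals for counting error. P2ry2 stood at 13.02 CPM (7.71 to 20.6) in 635 endothelial nuclei and at 19.1 CPM (10.2 to 32.7) in 264 mural nuclei. In 91 fibroblast-like nuclei P2ry12 stood at 57.2 CPM (24.7 to 113) from 8 UMIs and P2ry14 at 42.9 CPM (15.7 to 93.4) from 6, the highest levels of these receptors in any named class, while the macrophage list there summed to 157 CPM. Its part in those UMIs was not tested.

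The design asks whether left and right ganglia differ, since the 2 vagus nerves serve different ranges of organs. By side, 0 of 8 members passed in neurons, where edgeR called 0.156% of 14131 genes, 22 in all (0.0991% higher and 0.0566% lower on the right). An unadjusted p under 0.05 was found for 2 members and 925 genes, and DESeq2 called 71 genes and 0 members. P2ry2 came nearest. Its left pools had a lowest, median and highest of 2.92, 4.67 and 5.22 CPM and its right pools 1.82, 2.61 and 3.36, so that the sides overlapped only through FL1 against MR1 and MR2 (log2 fold change right over left -0.64 ± 0.16 SE, edgeR adjusted p = 0.187). Within nodose-like neurons alone, an alternative added after seeing the data, the left pools ranged from 3.31 to 5.06 CPM and the right from 1.53 to 3.03, without overlap, from 8 to 28 UMIs per pool (-0.66 ± 0.19, adjusted p = 0.166, with 102 of 13309 genes called there). The 5 subclusters with most P2ry2 UMIs made up 25.9% ± 4.23 of left and 19.8% ± 3.83 of right neurons (SD, n = 6), and their P2ry2 level was 8.08 ± 2.11 and 5.71 ± 1.24 CPM. Satellite markers in neurons summed to 706 ± 97.4 CPM in left pools and to 814 ± 102 CPM in right pools (SD, n = 6). The part of these in the difference was not tested. Without ML1 and FL1 the P2ry2 difference was -0.75 (edgeR adjusted p = 0.308).

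P2ry1 had 8.35 ± 1.88 CPM in left and 6.36 ± 1.33 in right neurons (SD, n = 6), with overlapping pools (-0.42 ± 0.14 SE, edgeR adjusted p = 0.521). For P2rx3 the sides were 274 ± 35.1 and 266 ± 10.1 CPM and for P2rx2 96.8 ± 26.8 and 94.6 ± 10.7 (SD, n = 6). The log2 differences were -0.06 ± 0.06 and -0.03 ± 0.10 SE, with adjusted p of 0.929 and 0.987 (edgeR). The other 4 members lay between -0.16 and 0.27 and did not pass. In satellite glia 5 members could be tested and 0 passed, where 0% of 10083 genes were called and 541 had an unadjusted p under 0.05. The member differences there lay between -0.12 and 0.10.

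By labelled sex, 0 of 8 members passed in neurons, where edgeR called 0% of 14131 genes, although 4 members and 2482 genes had an unadjusted p under 0.05 and DESeq2 called 328 genes, 1 of them a member. Without ML1 and FL1 edgeR called 31 of 14156 genes and 0 members. P2rx2 was nearest to passing. The female-labelled pools had a lowest, median and highest of 93.3, 106 and 135 CPM and the male-labelled pools 60.5, 84.2 and 93.5. The groups overlapped only through FR3 (93.3) and MR3 (93.5). The log2 fold change female over male was 0.40 ± 0.10 SE (edgeR adjusted p = 0.0894). P2rx2 passed with DESeq2 (adjusted p = 0.0135), with no filter on low counts (0.00346), without MR1 (0.0466) and without FR3 (0.0446, all others edgeR). Without ML1 and FL1, the pools whose Y-linked transcripts went against their label, it was 0.40 with an adjusted p of 0.153 (edgeR).

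Satellite markers moved with the sex label too: they summed to 816 ± 89.8 CPM in neurons of male-labelled and 703 ± 106 in those of female-labelled pools (SD, n = 6), and jugular-like nuclei made up 10.7% ± 7.07 and 7.496% ± 6.18 of neurons. These means include ML1 and FL1, which had 22.5% and 2.68% jugular-like nuclei and satellite markers at 784 and 618 CPM. Means without both pools were not computed. The part of satellite markers and of jugular-like nuclei in the P2rx2 values was not tested. Within nodose-like neurons alone the P2rx2 difference was 0.34 with overlapping pools and did not pass (edgeR adjusted p = 0.0985). P2rx3 had 284 ± 19.1 CPM in female-labelled and 256 ± 23.6 in male-labelled neurons (log2 0.13, edgeR adjusted p = 0.311). P2ry14, P2ry2 and P2ry1 had negative differences of -0.47, -0.40 and -0.32, with edgeR adjusted p between 0.206 and 0.268. Without ML1 and FL1 the values were 0.12 for P2rx3, -0.58 for P2ry14, -0.35 for P2ry2 and -0.27 for P2ry1, with edgeR adjusted p between 0.286 and 0.475. In satellite glia 0 of 5 members passed, where 0% of 10083 genes were called by edgeR and 621 had an unadjusted p under 0.05, and P2ry1 had the widest difference, -0.46 (adjusted p = 0.80). Without ML1 and FL1 edgeR called 27 of 9832 genes and 0 members there, and P2ry1 was at -0.49 (adjusted p = 0.624).

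The difference between sides did not itself differ between labelled sexes for any of 8 members (edgeR interaction term, 0% of 14131 genes called, 630 at an unadjusted p under 0.05). For P2rx2 the mean level was 76.3 ± 13.8 CPM in male left, 87.1 ± 7.600 in male right, 117 ± 18.1 in female left and 102 ± 7.77 in female right pools (SD, n = 3 each), and the interaction was -0.38 ± 0.18 on the log2 scale (edgeR adjusted p = 1.00). Without ML1 and FL1 it was -0.46 ± 0.21 (edgeR adjusted p = 0.99), and 0 of 14156 genes were called.

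**Figure D5:**
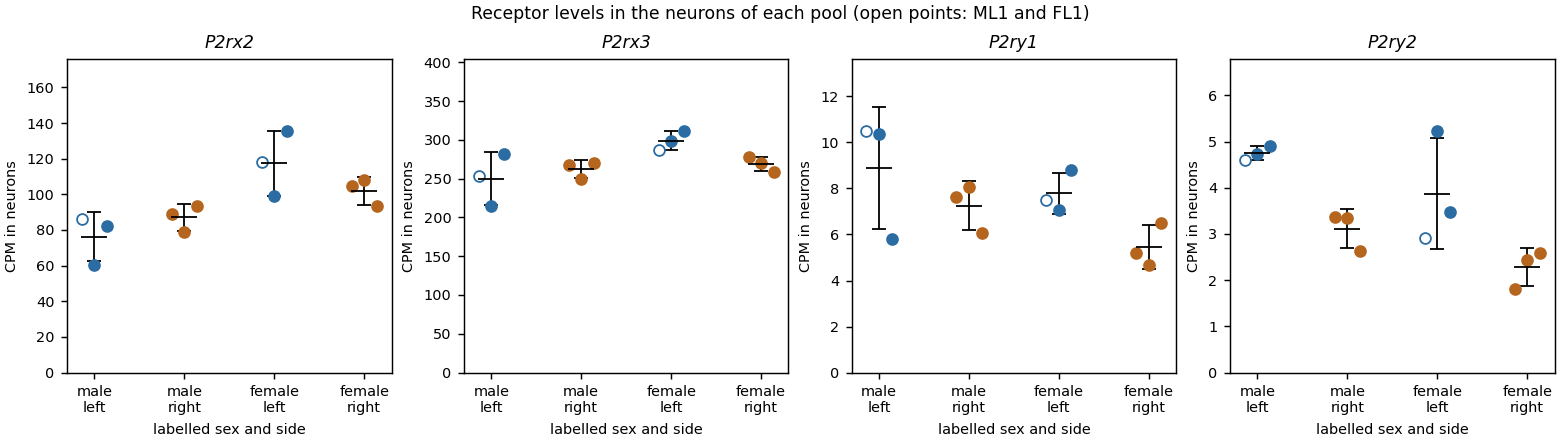
CPM in neurons (y axis, from 0) of 4 receptor genes in every pool, by labelled sex and side (x axis); black marks give mean and SD of 3 pools, and open points are ML1 and FL1. P2rx2 is above 93 CPM in the 6 female-labelled pools and at most 93.5 in the male-labelled ones, and P2ry2 is lower in right than in left pools of each sex on average.

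Of a wider list of 32 other purinergic genes (further receptors, enzymes that break down nucleotides, release channels and transporters), 30 were in the gene list. By side in neurons 1 of 20 tested passed, against 0.156% of 14131 genes. Adora1, the inhibitory adenosine A1 receptor, was lower on the right (log2 fold change -0.50 ± 0.08, edgeR adjusted p = 0.0166). Without ML1 and FL1 edgeR called 2 genes higher and 0 lower on the right, and at clustering resolution 0.5 it called 0. Adora1 thus did not pass in either of these alternatives. The list's median was 0.02 and that of all genes -0.01. By labelled sex in neurons 0 of 20 passed, and in satellite glia 0 of 13 by side or sex. By sex without ML1 and FL1, edgeR called 31 of 14156 genes in neurons and 27 of 9832 in satellite glia. Whether these include genes of the list is not given here.

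Between nodose-like and jugular-like neurons 5 of 15 wider genes were higher in the first and 7 lower, against 45.6% of all genes called, 22.6% higher and 22.9% lower. Slc29a1, an adenosine transporter, was higher (2.16), as were the nucleotidases Enpp1 (1.16), Entpd3 (0.94) and Entpd1 (0.73). Lower were Nt5e and Acp3, both of which make adenosine from AMP (-1.64 and -1.46), then Ada (-0.86), P2rx7 (-0.66), Adk (-0.55) and Enpp2 (-0.38). The list's median was -0.30 against 0.00 for all genes. All 12 passed edgeR's test at an adjusted p of at most 0.0117.

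Between glia and neurons all 14 wider genes tested passed in both classes, 4 higher and 10 lower in each, against 75.3% of all genes called in satellite glia (36.6% higher, 38.7% lower) and 76.1% in Schwann cells (38% each way). In satellite glia Alpl, an alkaline phosphatase, stood highest above neurons (log2 fold change 3.03), followed by P2rx7 (1.85), a P2X channel known from glia and immune cells, Entpd1 (1.35) and Enpp1 (1.07). Slc29a1 (-1.67), Acp3 (-1.31), P2ry4 (-1.24), Nt5e (-1.20) and the release channel Panx1 (-1.13) were lower. In Schwann cells P2rx7 led (3.81 ± 0.07, edgeR adjusted p = 8.32e-47), above P2ry2 and P2ry12 among the members, with Enpp1 at 2.06, and Slc29a1 (-2.53) and Entpd3 (-2.25) were lowest. The list's medians were -0.39 in satellite glia and -1.22 in Schwann cells, against -0.01 and 0.01 for all genes.

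Directly compared, a contrast added after seeing the data, Schwann cells exceeded satellite glia in P2ry2, P2rx4 (log2 fold change 0.59 ± 0.14, 9 of 12 pools) and P2ry1 (0.44 ± 0.19, 11 of 12 pools), with edgeR adjusted p of 2.91e-18, 0.000292 and 0.0404, where 59.9% of genes were called, 29.6% higher and 30.3% lower. P2rx2 and P2rx3 were lower in Schwann cells (-1.36 ± 0.12 and -1.51 ± 0.10, edgeR adjusted p = 3e-14 and 7.1e-19), so that 3 of 7 members were higher and 2 lower. The P2ry1 difference lost its call with DESeq2, with no low-count filter, with no pool block, at resolution 0.5 and without MR1, FL1, FL2, FL3 or FR3 in turn. P2ry12 did not pass (0.15 ± 0.16, adjusted p = 0.453), and it passed at resolution 0.5 (0.38, adjusted p = 0.0242). P2rx6 did not pass (-0.72 ± 0.33, adjusted p = 0.0595), and its call changed in 5 of 17 alternatives.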

How the data were processed

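Nuclear RNA from 12 pools was measured with Parse Evercode version 2 kits and sequenced in 8 sublibraries, per the labels. The authors deposited raw UMI counts per nucleus and gene, unnormalised, with a gene list and a table giving each nucleus its pool. Summed over genes, the matrix gave the deposited number of transcripts for all 36741 nuclei. Per the submitters' processing notes, build mRatBN7.2, R 4.3.2 and Seurat 4.1.3 were used; for the aligner, annotation, strand setting and barcode filter the sources used here give nothing. Sex, side and number came from pool names, and the samples of the deposit are sublibraries.

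The receptors, gene lists and comparisons were chosen with earlier results of these data known. Filters removed nuclei under 300 genes or over 5% mitochondrial UMIs. Scrublet at a rate of 0.06 called 2 nuclei, 0.00544% of all, so it hardly worked as a caller, and none was removed for it; in an alternative the 5% with the highest scores were removed. Clustering (scanpy 1.11.5, leidenalg 0.10.2, igraph 0.11.9, Python 3.11.15, resolution 1, seed 1) left out all purinergic genes. Marker lists numbered 19, and a marker counted only if found in at least 10% of nuclei. Classes other than neurons needed at least 3 markers of a list at 2-fold or more, with at least 1 gene of the list among the 10 leading genes. In a first clustering, a cluster was neuronal if it met no non-neuronal list and held at least 3 neuron markers 1.5-fold above non-neuronal clusters. Jugular-like subclusters had at least 3 jugular markers 2-fold above other neuronal nuclei. Nodose-like ones had at least 3 nodose markers 2-fold above jugular-like neurons. No leading gene was asked of neurons or of either type. These limits were settled after clusters were seen. Neuronal subclusters, 4 in all, with markers of another class stayed unnamed.

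UMIs were summed per pool and class. CPM is UMIs scaled to a class total of 1000000. Tests used edgeR 4.0.16 (quasi-likelihood, TMM, filterByExpr) under R 4.3.3 with Benjamini-Hochberg adjustment over all genes tested, threshold 0.05, with side and sex as terms, or pool as a block between classes. DESeq2 1.42.0 was an alternative. The fits were tested on simulated data. Endothelial cells had 19 nuclei in 1 pool, below the minimum of 20, and were not tested. All 8 receptors were described; of the wider list, genes past the threshold were named, at most 10 per comparison by size of change, and the 3 genes most alike over subclusters were named for receptors with at least 500 UMIs in neurons, some of which are not reported here. Nothing in the labels says that pools with 1 number share rats, so p-values measure the spread between pools.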

Additional observations from a re-analysis of the deposited data

Results flagged for a closer look

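Of the groups of 6 pools by side or labelled sex, 160 were checked for a pool far from the others (Dixon's test at 95%), over 8 receptors and 5 classes. Chance flags about 1 in 20 groups, and 13 were found. Several of these values rest on few UMIs, where counts move in coarse steps, so that rate is only a rough guide. No cause was tested.

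Among jugular-like neurons, P2rx2 stood at 0 CPM in ML3 against 12.8 in the next left pool. P2rx4 was at 28.3 CPM in MR3, with the next right pool at 16.5, and P2ry2 was at 20.1 CPM in MR1, with the next at 11.9. P2ry14, with a median of 1.28 CPM over the 12 pools, was at 9.24 CPM in FR2, with the next female-labelled pool at 0.687. In nodose-like neurons P2rx2 was highest in FL3 (156 CPM, next 131), P2rx6 lowest in FL2 (8.15, next 10.4) and P2ry2 highest in ML3 (5.06, next 3.75).

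In satellite glia P2ry1 was highest in FL3 (24.3 CPM from 13 UMIs, next female-labelled pool 16.1) and P2ry2 in FL2 (7.41 from 4 UMIs, next left pool 3.23). P2ry14 was lowest in FL2 among female-labelled pools (1.85 from 1 UMI, next 8.52) and in MR1 among right pools (5.67 from 8 UMIs, next 8.52). In Schwann cells P2rx4 was highest in FL2 (78.5 CPM, next 48.4) and P2ry2 in ML3 among male-labelled pools (48.3, next 40.6).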

How the results depend on the processing

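Counts of receptors called by side in neurons and by side or sex in satellite glia, and by the interaction, were 0 under every alternative run. By labelled sex in neurons the count was 0 and became 1 (P2rx2) with DESeq2, with no low-count filter and on leaving out single pools, where it ranged from 0 to 1. Between nodose-like and jugular-like neurons it was 4 and ranged from 4 to 5 without single pools, and was 2 with nuclei thinned to 1000 UMIs. Against neurons it was 6 in satellite glia (5 to 6 without single pools, 1 when thinned) and 7 in Schwann cells (5 to 7, 2 when thinned). P2rx6 and P2ry2 were tested in 11 of the 12 settings without a single pool and fell under the low-count filter in the other. In Schwann cells no receptor lost its call where it was tested. With thinned nuclei only P2rx2 and P2rx3 were deep enough to be tested in these contrasts, and P2rx2 lost its call in satellite glia. The P2rx2 and P2rx3 ratio was 1.05 (1.05 without single pools) and kept its size but not its call when thinned (1.05). P2rx6 between nodose-like and jugular-like neurons reversed to 1.18 at resolution 0.5 and 1.01 at resolution 2. P2rx3 in satellite glia reversed to 0.058 at resolution 0.5. P2ry2 in satellite glia, near 0, reversed to -0.070 with no low-count filter, to -0.0029 with no replicate block, to -0.59 at resolution 0.5, to -0.19 at resolution 2 and to -0.10 without the 5% of nuclei with the highest doublet scores, and ranged from -0.080 (without MR3) to 0.12 without single pools. The causes were not tested.

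With the replicate number as a block, the side difference of P2ry2 in neurons was -0.66 and that of P2ry1 -0.42, and 0 receptors were called. Same-numbered left and right pools correlated from -0.18 to 0.52 in their deviations, not all above 0.1, and the numbers were not taken as pairs. The highest r of any left and right pool compared, 0.52, was that of ML2 with MR2. Deviations were taken from means of 3 pools, so this check cannot exclude shared rats. The main side tests leave any such sharing out.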
